A study of Mus musculus with 6 samples.

Results

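The cytosolic ribosomal protein genes were followed in RNA-seq libraries of mouse chondrocytes with and without Ppp1r15b. They were taken by symbol from the deposited gene table, as every Rpl or Rps symbol with a number and at most a short suffix (a, x, l or al), together with Rplp0, Rplp1, Rplp2 and Rpsa and without pseudogene symbols. This gave 81 of the 17666 genes in the table, of which 79 passed the count filter, 48 of the large subunit and 31 of the small subunit. Rps6 was kept apart from the other 78 tested genes because processed copies make its count uncertain. Rpl3l, a muscle form of the large subunit protein Rpl3, and Rpl32l did not pass the filter and reached at most 3 counts and 1 count in any library.

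There were 3 WT and 3 KO libraries. WT cells carried Prx1-Cre;Rosa26mT/mG, a Cre driver of the limb mesenchyme with a reporter that turns from red to green fluorescence where Cre has acted. KO cells carried Ppp1r15bPrx1;Rosa26mT/mG, in which Ppp1r15b is deleted by the same driver. Both groups therefore carry the Cre driver and the reporter. Chondroprogenitors were taken from P0 knee joints by digestion and sorting for GFP. The growth protocol adds culture in DMEM until the cells had matured, whereas the series design text names no culture step. Prx1-Cre marks cartilage and other descendants of limb mesenchyme alike, and the labels name neither the deleted exons nor an animal or culture for each library. P-values therefore measure the spread between these libraries, which may be technical.

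A cytosolic ribosome consists of a small subunit, which reads the mRNA, and a large subunit, which joins amino acids, and each holds ribosomal RNA and one copy of nearly every ribosomal protein. The exception is the stalk, in which Rplp0 carries several copies of Rplp1 and Rplp2. The mRNAs of these proteins begin with a 5′ terminal oligopyrimidine (TOP) tract, through which mTORC1 and the RNA-binding protein LARP1 adjust their translation. Ppp1r15b encodes CReP, a constitutively made partner of protein phosphatase that dephosphorylates the initiation factor eIF2alpha, which lets ribosomes go on starting on mRNAs. RNA-seq measures how much of each mRNA was present, not how often it was translated.

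Ppp1r15b, the targeted gene, had 86.8, 52.2 and 89.2 CPM in the WT libraries and 19.3, 23.5 and 27.5 CPM in the KO libraries (counts scaled to library size with TMM factors; values are always listed in the order of replicates 1, 2 and 3). Every KO library was lower, and the gene fell by edgeR's quasi-likelihood test, its log2 fold change being -1.70 (SE 0.24, adjusted p = 0.0297). Library totals ran from 18380875 to 19643946 estimated counts. Within the groups, WT replicates 1 and 3 differed least, with a chi-square per degree of freedom of 3.04 over genes, and KO replicates 1 and 2 next, with 4.83. WT replicate 2 stood apart from the other WT libraries (15.4 and 16.1) and KO replicate 3 far more from the other KO libraries (126 and 128). No gene of the whole table was called by edgeR without WT replicate 1, without WT replicate 3, without KO replicate 1 or without KO replicate 2, Ppp1r15b and the markers named here included. Results on the ribosomal protein genes are also given without KO replicate 3, and where they differ without both of these libraries.

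Most adipocyte markers and 2 of 12 macrophage markers fell in KO. All 12 macrophage estimates were below 0 (median log2 fold change -2.58), and 8 had an unadjusted p under 0.05. In 11 of the 12, every KO library lay below every WT library, against 14.5% of all genes. DESeq2 called 9 adipocyte and 7 macrophage markers lower and 5 chondrocyte markers higher, and limma-voom 6, 2 and 1. Over all 13692 genes tested, DESeq2 called 497 higher and 674 lower, and limma-voom 96 and 176. Of the 17 chondrocyte markers tested, 2 rose, Col9a2 and Col11a2, collagens of the cartilage matrix, and Col2a1, the main cartilage collagen, had a WT mean of 30232 ± 4497 CPM and a KO mean of 25951 ± 1014 CPM (SD over 3 libraries). Adipocyte markers fell in 9 of 10 tested genes, with summed levels of 1040.2, 509.9 and 897 in the WT libraries and 48.1, 45.7 and 73.1 in the KO libraries, and macrophage markers in 2 of 12, with 392, 211 and 391 in the WT libraries and 18.3, 18.1 and 154 in the KO libraries (CPM). Fibroblast markers, of which none was called in 9 tested (0 at an unadjusted p under 0.05, 0 by DESeq2 or limma-voom), summed to 28060.0, 21957 and 26689 in the WT libraries and 25747, 26419 and 7291 in the KO libraries (CPM), so KO replicate 3 was far below the rest. Skeletal muscle markers (0 called of 13, 1 at an unadjusted p under 0.05, 1 called lower by DESeq2, 0 by limma-voom) summed to 793, 100.05 and 709 in the WT libraries and 22.1, 20.5 and 286 in the KO libraries (CPM), and endothelial markers (0 called of 9, 1 at an unadjusted p under 0.05, 0 by DESeq2 or limma-voom) to 108, 103 and 113 in the WT libraries and 80.9, 82.3 and 108 in the KO libraries (CPM). Eng alone held 88.65, 88.08 and 93.4 of the endothelial sum in the WT libraries and 68.2, 69.5 and 86.5 in the KO libraries (CPM). Of the 9 endothelial estimates, 8 were below 0, with a median log2 fold change of -0.65. Without KO replicate 3, 5 of the 9 were called lower, against 16.1% of all genes. No red cell marker passed the filter, and their sum stayed below 1 CPM in every library. The part of these cell types in the ribosomal protein values was not tested. In bulk RNA, fewer cells of a type and less RNA per cell cannot be told apart.

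The starts of the genes the results turn on are shown here because the TOP tract lies there. The RefSeq promoter table for GRCm38.p6 held 61 of the 81 genes. It lists 2 starts for Rps27l, of which the first is shown. The starts shown for Rps12, Rps27l and Rpl39l lie inside the gene spans given below. That of Rps9 also lies inside its gene, which begins at 3703954 on chromosome 7. Each window runs from 30 bases before the annotated start to 20 bases from the start on and is written 5′ to 3′ along the gene. Capitals mark the longest run of pyrimidines between 20 bases before and 30 bases after the start, as far as it falls in the window. Bases farther upstream were not searched, so a longer run in lower case can begin there, as in Rpl39l. Rps12, Rplp2, Rpl13a and Rps9 had among the highest fold changes, Rps6 is the gene kept apart, and Rpl36al, Rps27l and Rpl39l are paralogues with estimates below 0.
Rps12, chr10:23787190-23787239, minus strand: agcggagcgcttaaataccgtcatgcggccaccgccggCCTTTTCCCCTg
Rplp2, chr7:141447621-141447670, plus strand: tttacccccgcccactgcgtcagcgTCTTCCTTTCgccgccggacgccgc
Rpl13a, chr7:45128726-45128775, minus strand: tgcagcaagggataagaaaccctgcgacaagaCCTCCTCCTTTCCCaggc
Rps9, chr7:3704011-3704060, plus strand: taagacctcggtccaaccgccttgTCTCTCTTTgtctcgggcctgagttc
Rps6, chr4:86857348-86857397, minus strand: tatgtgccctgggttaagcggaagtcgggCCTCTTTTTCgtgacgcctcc
Rpl36al, chr12:69184048-69184097, minus strand: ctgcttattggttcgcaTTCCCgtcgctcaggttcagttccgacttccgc
Rps27l, chr9:66946056-66946105, plus strand: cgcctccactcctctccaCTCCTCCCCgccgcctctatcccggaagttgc
Rpl39l, chr16:10170198-10170247, plus strand: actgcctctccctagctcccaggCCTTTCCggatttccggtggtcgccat
Between 20 bases before and 30 bases after the annotated start, a run of at least 8 pyrimidines was present in 34 of the 61 genes (55.7%) and in 21.5% of all 27025 genes in that table, and the median longest run was 9 bases against 5. On the gene's own strand in the same stretch, CTTTCC was found in 19.7% of the ribosomal protein genes and 2.83% of all genes, and CTTTTC in 8.2% and 2.01%. At least one of these overlapping letter strings was found in 16 of the 61 genes (26.2%), against 4.72% of all genes. On both strands of the whole window of the table the shares lay closer together, 52.5% and 29.3% for CTTTCC and 27.9% and 24.3% for CTTTTC. Searched alike, TATAAA was found near the start in 4.92% and 0.973%, and on both strands in 11.5% and 15.7%. Annotated starts can be some bases away from the start a cell uses, so a run that does not begin at the first base is not evidence for or against a TOP tract.

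Ribosomal protein mRNAs other than Rps6 held between 4.12% and 5.14% of the counts of each library. Their share of all estimated counts was 4.20%, 4.72% and 4.12% in the WT libraries and 5.14%, 4.68% and 4.25% in the KO libraries, a mean of 4.35% ± 0.327 in WT and 4.69% ± 0.446 in KO (SD over 3 libraries). KO replicate 1 was highest, but KO replicate 3 lay below WT replicate 2, so the groups overlapped. In TPM, which is scaled by transcript length, the share was 13.9%, 15.1% and 13.5% in the WT libraries and 16.6%, 15.8% and 13.9% in the KO libraries, and the groups overlapped there too. The share of the large subunit genes was 2.60%, 2.92% and 2.55% in the WT libraries and 3.18%, 2.88% and 2.62% in the KO libraries, and that of the small subunit genes 1.60%, 1.80% and 1.57% in the WT libraries and 1.97%, 1.80% and 1.64% in the KO libraries. Both sets were highest in KO replicate 1 and lowest in WT replicate 3.

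Per length, most of the genes lay within a narrow band. The median over the 78 genes was 1779 TPM for the WT means and 1897 TPM for the KO means, and 56 of the 78 had a mean over the 6 libraries between 1000 and 3000 TPM. The highest was Rpl41, the smallest large subunit protein, with a WT mean of 7136 ± 414 TPM and a KO mean of 6944 ± 767 TPM. Rplp1, a stalk protein present in several copies per ribosome, followed with a WT mean of 5070.0 ± 387 TPM and a KO mean of 5526 ± 292 TPM, and Rps26, of the mRNA exit side of the small subunit, with a WT mean of 4923 ± 363 TPM and a KO mean of 5179 ± 248 TPM. Rplp0, Rps2 and Rpl23a came next, with WT means of 4148, 3940.5 and 3132 TPM. In WT, the libraries' values of Rplp1 and Rps26 overlapped, as did those of Rplp0 and Rps2, whereas Rpl41 lay above all others in each of the 6 libraries. The lowest of the 78 was Rpl39l, a paralogue of Rpl39 known for its role in male germ cells, with a WT mean of 33.2 ± 3.10 TPM and a KO mean of 26.2 ± 1.35 TPM. A TPM value depends on the transcript lengths that the authors used: Rps15a had a mean of only 142 TPM with 6232 counts in WT replicate 1, against 1750.4 TPM for Rps29 with 4716 counts. All of these are levels, on the TPM scale.

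**Figure D1:**
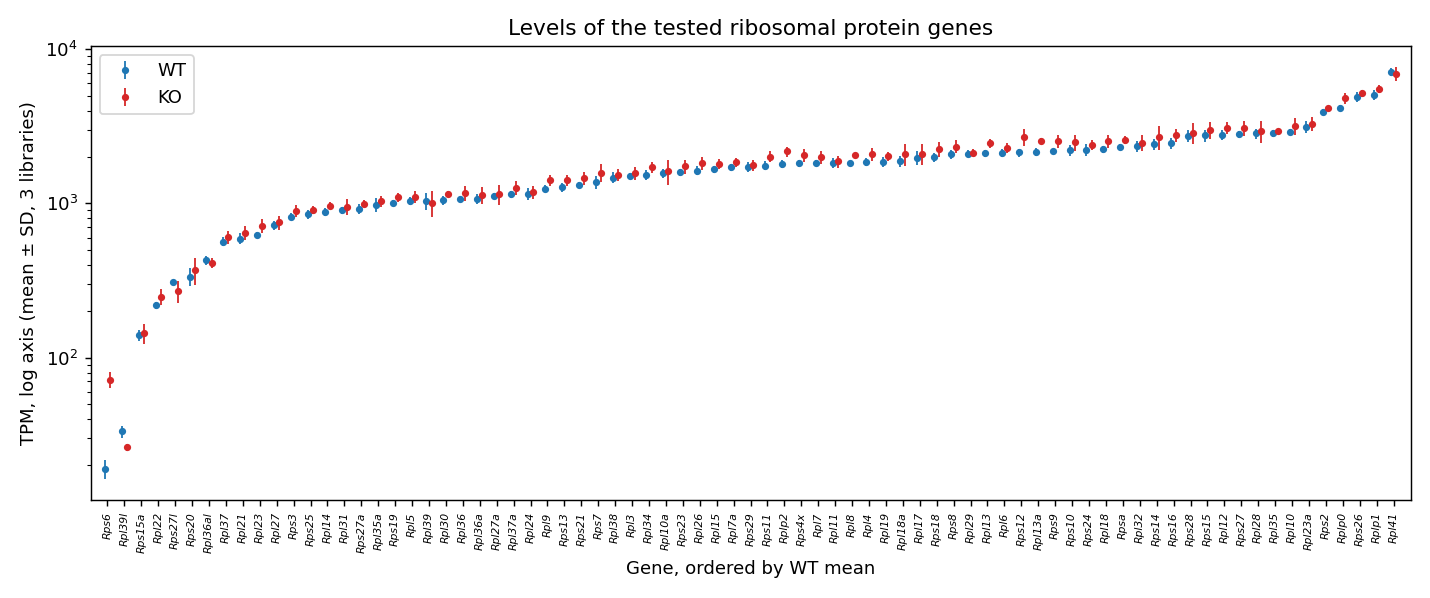
Mean level of 77 of the 79 tested ribosomal protein genes in WT and KO, in TPM on a log axis with genes ordered by their WT mean; points are means and bars the SD over 3 libraries. Most genes sit between 1000 and 3000 TPM with WT and KO side by side, Rpl41 is highest, and Rps6 at the far left has the widest gap between its WT and KO points.

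Deletion of Ppp1r15b was compared with WT over all 13692 genes that passed the filter, and the ribosomal protein genes are read from that fit. Apart from Rps6, none of the 78 genes was called in either direction at an adjusted p under 0.05 by edgeR, and none by DESeq2 or limma-voom. Over all genes, 0.884% were called higher and 1.63% lower. At an unadjusted p under 0.05, 1 of the 78 genes passed, Rpl39l, against 19.2% of all genes. Of the 78 estimates, 67 were above 0 and 11 below, where 51% of all genes were above 0, with a median log2 fold change of 0.087 (quartiles 0.023 and 0.12) beside 0.0051 over all genes. The median standard error, 0.12, was larger than this median. Without KO replicate 1, 44 of the 78 estimates were above 0 and the median was 0.0061. With all KO libraries above all WT libraries there was 1 gene, Rplp2, and with all below there was 1, Rpl39l, against 14% and 14.5% of all genes. The median was 0.074 over 48 large subunit genes and 0.10 over 30 small subunit genes.

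**Figure D2:**
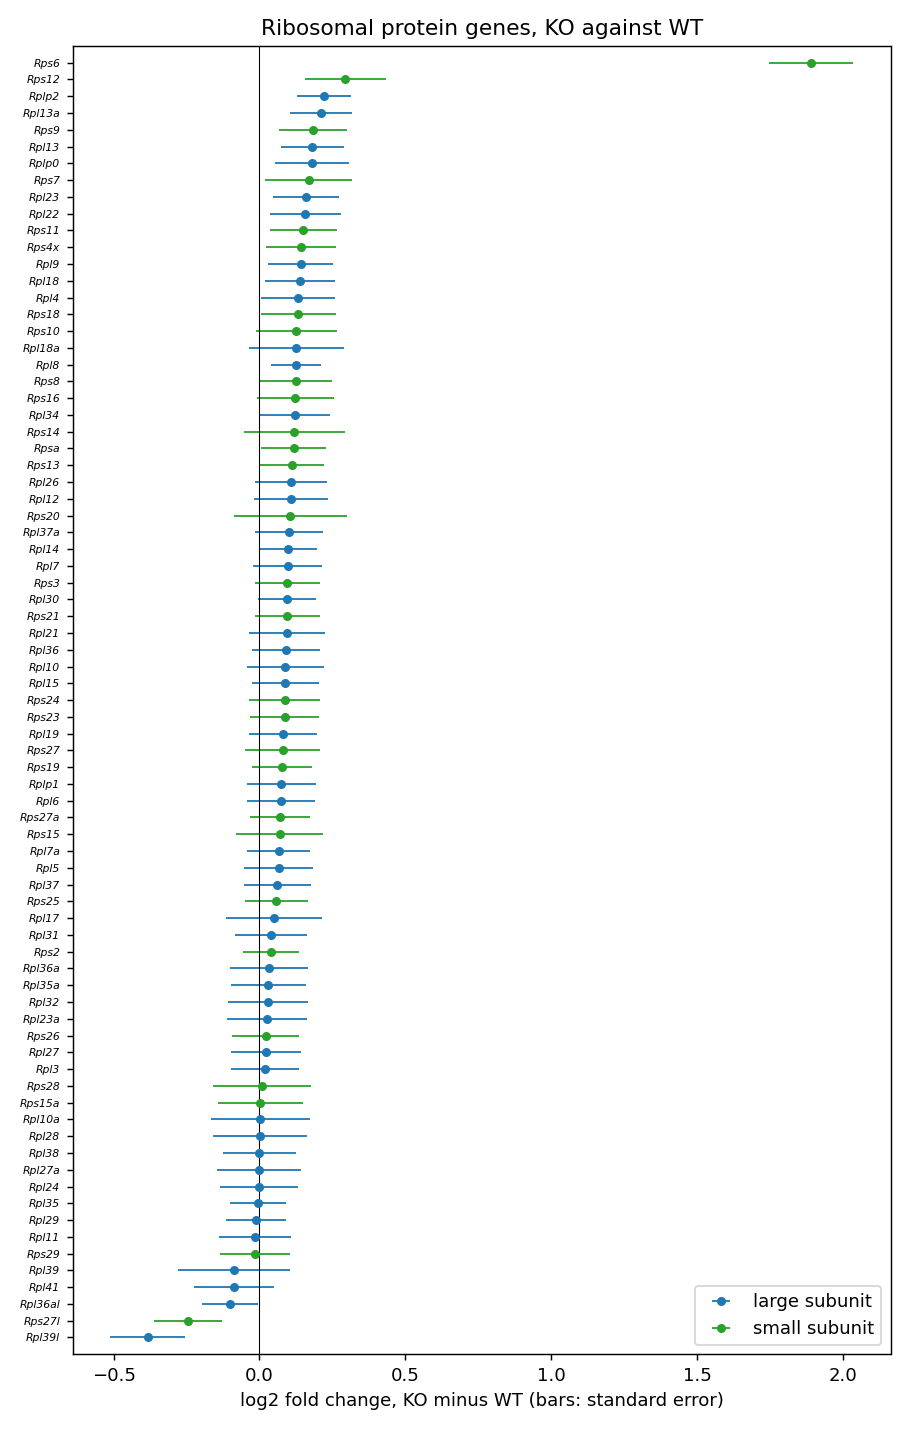
Log2 fold change of KO against WT for 77 of the 79 tested ribosomal protein genes, large subunit in blue and small subunit in green, with bars for 1 standard error from the edgeR fit. All genes drawn except Rps6 (1.89) lie between -0.38 and 0.29, and Rps27l and Rpl39l are the lowest.

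The highest values of these genes fell in KO replicate 1 and WT replicate 2. Of the 75 genes other than Rps6, Rpl36al, Rps27l and Rpl39l, 61 were highest in KO replicate 1 and the other 14 in WT replicate 2. The lowest library was KO replicate 3 for 34, WT replicate 3 for 31, WT replicate 1 for 9 and WT replicate 2 for 1. The genes moved together from library to library, with a median correlation of 0.90 between pairs of the 78 genes over the 6 libraries. These points share their libraries and scaling, so the correlation is a description. The 3 paralogues had a median correlation of -0.14 with the others.

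**Figure D3:**
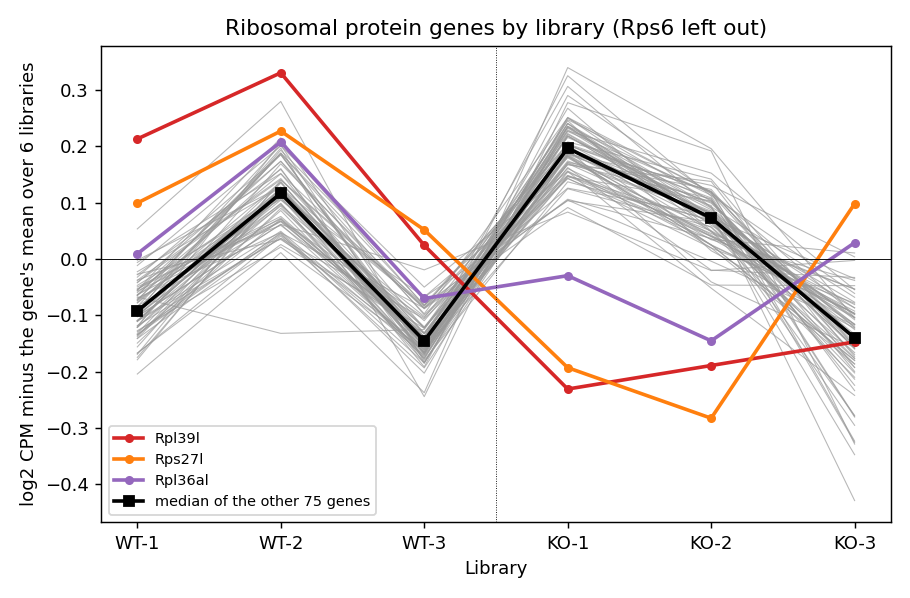
Log2 CPM of each ribosomal protein gene in each library, minus that gene's mean over the 6 libraries (Rps6 left out). Thin grey lines are single genes, the black line the median of 75 genes and the coloured lines 3 paralogues; the median is highest in KO replicate 1 and WT replicate 2 and lowest in WT replicate 3 and KO replicate 3, while Rps27l and Rpl39l are low in KO replicates 1 and 2.

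Without KO replicate 3, 7 of the 78 genes were called higher, among them Rplp2, Rps12, Rps9, Rpl22, Rpl13a and Rplp0, and 2 lower (Rps27l and Rpl39l), with a median log2 fold change of 0.16. Over all genes, 12.5% were called higher and 16.1% lower in that comparison, so the share of ribosomal protein genes called, 8.97% and 2.56%, was below the share of all genes in both directions. Without WT replicate 2 as well, 71 were called higher and 2 lower, with a median of 0.24 and against 17.5% and 21.7% of all genes. WT replicate 2 was the WT library in which these genes were highest and KO replicate 3 the KO library in which they were lowest, so leaving out both widens the gap by construction. With only 2 libraries a group, this count rests on a common dispersion of 0.00221 in place of 0.0525.

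The highest estimate was that of Rps12, a protein of the small subunit known in Drosophila for its part in cell competition. It (Entrez gene 20042, chromosome 10 from 23785183 to 23787383 in GRCm38.p6) had 428, 496 and 418 CPM in the WT libraries and 623, 564 and 458 CPM in the KO libraries. KO replicates 1 and 2 lay above every WT library, and KO replicate 3 between WT replicates 1 and 2, and its log2 fold change was 0.29 (SE 0.14, adjusted p = 0.315), which became 0.41 (adjusted p = 0.00972) without KO replicate 3. Rplp2, of the stalk, was the one gene of the 78 with every KO library above every WT library (Entrez gene 67186, chromosome 7 from 141447651 to 141451359), with 323, 309 and 310.3 CPM in the WT libraries and 396, 376 and 326 CPM in the KO libraries. KO replicate 3 was only just above them, and the log2 fold change was 0.22 (SE 0.092, adjusted p = 0.264), or 0.30 (adjusted p = 0.00673) without KO replicate 3.

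Rpl13a, which besides its place in the large subunit is known to silence certain inflammatory mRNAs in human monocytes, had 909.8, 1051 and 894 CPM in the WT libraries and 1163, 1119 and 1024 CPM in the KO libraries. KO replicate 3 lay within the WT range, and the estimate was 0.21 (SE 0.11, adjusted p = 0.34). Rps9, near the mRNA entry of the small subunit, had 625, 693 and 611 CPM in the WT libraries and 811, 742 and 638 CPM in the KO libraries. KO replicate 3 lay among the WT libraries here as well, with an estimate of 0.18 (SE 0.12, adjusted p = 0.452). Rpl22, an RNA-binding large subunit protein needed for T cell development in mice, had 209, 234 and 201 CPM in the WT libraries and 269, 245 and 204 CPM in the KO libraries, with an estimate of 0.16 (SE 0.12, adjusted p = 0.538). It was among the 7 called without KO replicate 3, at 0.26 (adjusted p = 0.0344).

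The stalk proteins recruit and activate the translation factors that hydrolyse GTP. Rplp0, which anchors the stalk, had 2339, 2673 and 2411 CPM in the WT libraries and 3102, 2800.0 and 2505 CPM in the KO libraries, an estimate of 0.18 (SE 0.13, adjusted p = 0.502) that was 0.26 (adjusted p = 0.0446) without KO replicate 3. Rplp1, which pairs with Rplp2, had 859, 1064 and 909 CPM in the WT libraries and 1054, 1019 and 909 CPM in the KO libraries. Its highest value was in WT replicate 2, the estimate was 0.075 (SE 0.12, adjusted p = 0.788), and it was not called without KO replicate 3 (adjusted p = 0.278).

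Genes whose change is known to alter the skeleton or body form gave estimates above 0 in 4 of 7 cases, and none was called. Rpl38, whose loss in the Tail short mouse alters the axial skeleton, had 193, 224 and 177 CPM in the WT libraries and 219.6, 200.4 and 174 CPM in the KO libraries. The group means were equal to within rounding, at a log2 fold change of 3.9e-05 with an SE of 0.13, and with WT replicate 2 and KO replicate 1 high in their groups. Rpl24, mutated in the Belly spot and tail mouse, had 299, 375 and 307 CPM in the WT libraries and 372, 316 and 291 CPM in the KO libraries and an estimate of -0.0014 (SE 0.13, adjusted p = 0.998). Rpl29, without which mice are small with fragile bones, had 669, 759 and 651 CPM in the WT libraries and 741, 687 and 635 CPM in the KO libraries and an estimate of -0.012 (SE 0.10, adjusted p = 0.97). For these genes the WT and KO ranges covered nearly the same span.

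Rpl13, whose human counterpart is mutated in a spondyloepimetaphyseal dysplasia, had 671, 762 and 657 CPM in the WT libraries and 869, 778 and 722 CPM in the KO libraries, an estimate of 0.18 (SE 0.11, adjusted p = 0.426) and of 0.25 (adjusted p = 0.0563) without KO replicate 3. Rpl10, which joins the large subunit late and is linked in humans to X-linked developmental disorders, had 951, 1057 and 938 CPM in the WT libraries and 1171, 1084 and 878 CPM in the KO libraries. KO replicate 1 was the highest and KO replicate 3 the lowest of all libraries, with an estimate of 0.089 (SE 0.13, adjusted p = 0.773). Rps7, mutated in mouse lines with skeletal malformations, had 529, 649 and 523 CPM in the WT libraries and 730.2, 647 and 534 CPM in the KO libraries and an estimate of 0.17 (SE 0.15, adjusted p = 0.6). Rpl27a, changed in the sooty foot ataxia mouse, had 529, 586 and 507 CPM in the WT libraries and 619, 564 and 438 CPM in the KO libraries and an estimate of -0.0011 (SE 0.14, adjusted p = 0.999). In each of these, KO replicate 3 lay within or below the WT libraries.

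Rpl5 and Rpl11 join the 5S ribosomal RNA and, when they are not built into ribosomes, bind MDM2 and so stabilise p53. Rpl5 had 558, 636 and 536 CPM in the WT libraries and 662, 622 and 527 CPM in the KO libraries, and Rpl11 425, 506 and 415 CPM in the WT libraries and 491, 450.4 and 390.5 CPM in the KO libraries. Both were highest in KO replicate 1 or WT replicate 2 and lowest in KO replicate 3, with estimates of 0.065 (SE 0.12, adjusted p = 0.823) and -0.015 (SE 0.12, adjusted p = 0.967). Of the 9 genes counted here as genes of Diamond-Blackfan anaemia, a human failure of red cell production, 8 estimates were above 0 and none was called. Rps19, the gene most often mutated in it, had 312, 334 and 293 CPM in the WT libraries and 364, 330.1 and 296 CPM in the KO libraries and an estimate of 0.076 (SE 0.10, adjusted p = 0.75). The estimates for Rps24, Rps10, Rpl35a and Rps26 were 0.087, 0.13, 0.031 and 0.022, all with adjusted p of 0.689 or more.

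The 4 genes listed here for the mRNA entry and decoding side of the small subunit had small estimates above 0. Rps3, at the mRNA entry and also a DNA repair factor, had 673, 744 and 641 CPM in the WT libraries and 798, 749 and 652 CPM in the KO libraries and an estimate of 0.10 (SE 0.11, adjusted p = 0.701). Rps23 contacts the decoding centre and had 356, 389 and 334 CPM in the WT libraries and 416, 402 and 328 CPM in the KO libraries, with an estimate of 0.086 (SE 0.12, adjusted p = 0.753). The estimates of Rps15 and Rps2 were 0.069 and 0.039, and no gene of these 4 was called with or without KO replicate 3. Rps9, described above as near the mRNA entry, is not among the 4. Without KO replicate 3 it was called higher by edgeR, at 0.28 (adjusted p = 0.0257). Around the exit tunnel of the large subunit, where the new protein leaves, 6 of 8 estimates were above 0. Rpl4, which lines the tunnel, was highest at 0.13 (SE 0.13, adjusted p = 0.631) and Rpl39 lowest at -0.087 (SE 0.19, adjusted p = 0.857). The other 6, Rpl26, Rpl19, Rpl17, Rpl31, Rpl23a and Rpl35, ran from -0.0043 to 0.11. Rps27a, made as a fusion with ubiquitin that is cut apart, had 274, 316 and 260.3 CPM in the WT libraries and 324, 286 and 283 CPM in the KO libraries and an estimate of 0.071 (SE 0.10, adjusted p = 0.768).

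Of the 8 lowest estimates, 3 belonged to paralogues that the rule took in with their core genes. Rpl39l (Entrez gene 68172, chromosome 16 from 10170197 to 10174911 in GRCm38.p6) had 11.2, 12.2 and 9.86 CPM in the WT libraries and 8.26, 8.50 and 8.75 CPM in the KO libraries. Each KO library was below each WT library, at counts of only 152 to 224, and the log2 fold change was -0.38 (SE 0.13, adjusted p = 0.188). Without KO replicate 3 it was -0.40 (adjusted p = 0.0495). Rps27l, a paralogue of Rps27 and a known p53 target (Entrez gene 67941, chromosome 9 from 66944624 to 66949522), had 63.5, 69.4 and 61.5 CPM in the WT libraries and 51.9, 48.8 and 63.5 CPM in the KO libraries. KO replicates 1 and 2 lay below every WT library and KO replicate 3 within the WT range, and the estimate of -0.24 (SE 0.12, adjusted p = 0.32) became -0.36 (adjusted p = 0.00775) without KO replicate 3. Rpl36al, a paralogue of Rpl36a, had 86.6, 99.4 and 82.0 CPM in the WT libraries and 84.3, 77.8 and 87.8 CPM in the KO libraries and an estimate of -0.10 (SE 0.10, adjusted p = 0.631). The other 5 were Rpl41 (-0.088), Rpl39 (-0.087), Rps29 (-0.016), Rpl11 and Rpl29, and in all of them WT replicate 2 was the highest library.

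Beside its core gene, each paralogue took a smaller mean share of the pair's counts in KO, but no difference passed an exact permutation test. This holds for 5 pairs, of which 2 have a paralogue outside the rule. The share of Rps27l in the counts of Rps27 and Rps27l was 15.5%, 14.6% and 15.2% in the WT libraries and 11.02%, 10.6% and 16.3% in the KO libraries, so KO replicates 1 and 2 were the lowest and KO replicate 3 the highest. KO replicates 1 and 2 were also lowest and KO replicate 3 highest for Rpl39l, with 6.00%, 5.58% and 6.19% in the WT libraries and 4.10%, 4.48% and 6.49% in the KO libraries, and for Rpl36al, with 29.1%, 30.1% and 30.3% in the WT libraries and 26.2%, 25.5% and 32.8% in the KO libraries. For Rpl7l1, a paralogue of Rpl7 that acts in ribosome assembly, the shares were 10.7%, 10.04% and 11.4% in the WT libraries and 9.08%, 9.83% and 11.04% in the KO libraries. Rpl22l1, the paralogue whose mRNA Rpl22 itself is known to restrain, was in the one pair whose groups did not overlap, with 14.7%, 14.8% and 14.2% in the WT libraries and 12.6%, 13.1% and 11.2% in the KO libraries. Its difference had p = 0.1 in the exact two-sided permutation test, the smallest that 3 against 3 allows, the other pairs had p = 0.4, and all 5 had an adjusted p = 0.4. The level of Rpl22l1 itself overlapped, with 36.1, 40.5 and 33.2 CPM in the WT libraries and 38.8, 37.0 and 25.8 CPM in the KO libraries. Its edgeR estimate was -0.11 (SE 0.17, adjusted p = 0.776).

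**Figure D4:**
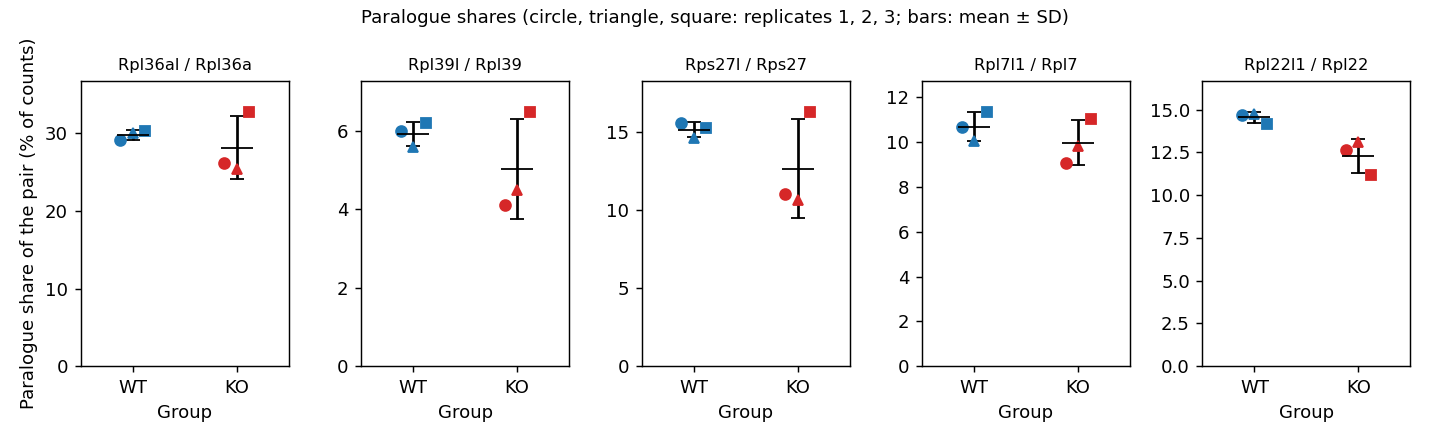
Share of each paralogue in the counts of its pair, in percent, for WT (blue) and KO (red), with circle, triangle and square for replicates 1, 2 and 3 and bars for the mean ± SD. In the Rps27l, Rpl39l and Rpl36al panels KO replicates 1 and 2 lie below the WT points and KO replicate 3 above them, and in the Rpl22l1 panel all 3 KO points lie below.

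The p53 targets Cdkn1a, which stops the cell cycle, and Ccng1, a cyclin induced by p53, had library values that can be set beside those of Rps27l. Cdkn1a had 377, 353 and 394 CPM in the WT libraries and 255, 240.5 and 571 CPM in the KO libraries, and Ccng1 341, 348 and 339 CPM in the WT libraries and 212, 215 and 386 CPM in the KO libraries. Both were lower in KO replicates 1 and 2 than in every WT library and highest in KO replicate 3. Of 15 p53 targets tested, none was called with all libraries (3 at an unadjusted p under 0.05; DESeq2 called 1 lower and limma-voom none), with a median log2 fold change of 0.0091. Without KO replicate 3, 8 were called lower and 2 higher, with a median of -0.21 and against 16.1% and 12.5% of all genes.

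Rps6, the small subunit protein that S6 kinases phosphorylate when growth signals are active, was the one gene of the family that passed the test. Its table entry (Entrez gene 20104, chromosome 4 from 86854099 to 86857367 in GRCm38.p6) had 261, 207 and 194 estimated counts in the WT libraries and 888, 805 and 747 estimated counts in the KO libraries. Every KO library was above every WT library by far, and it rose, its log2 fold change being 1.89 (SE 0.14, adjusted p = 0.0126), or 1.99 (adjusted p = 4.9e-05) without KO replicate 3. The call was lost without WT replicate 1 (adjusted p = 0.0892), WT replicate 3 (0.11), KO replicate 1 (0.0837) or KO replicate 2 (0.0812), with log2 fold changes of 2.00, 1.82, 1.80 and 1.87.

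The level of Rps6 was far below that of nearly all other genes of the family. It had a WT mean of 19.0 ± 2.72 TPM and a KO mean of 72.0 ± 8.22 TPM (SD over 3 libraries), where the median of the other 78 genes was 1779 TPM in WT, and only Rpl39l was of similar size. None of its 6 values was a whole number. By BLAST, 10 annotated pseudogenes of GENCODE vM21 matched the Rps6 transcript over at least 80% of its length at 95% identity or more. The best match had 100% identity. How reads were divided among these copies is not given in the sources used here, so the rise of Rps6 is uncertain and its cause was not tested. Other genes of the family also have such copies: 17 genes had at least 1, with 31 for Rpl7a, 22 for Rps2 and 16 for Rpl23a. Their estimates were 0.067, 0.039 and 0.026, and their levels 1783, 4046 and 3211 TPM. In 57 of the 81 genes every count was whole, in 12 none was, and the other 12 had some of each. Whole counts did not separate the genes with such copies from those without. Rplp2, Rpl23, Rps16 and Rpl11 had no whole count and no such copy. Every count of Rpl23a, Rpl13 and Rpl3, which have copies, was whole, and Rpl7a and Rps2 had some of each.

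Several genes of the family make more than one transcript, and the deposited transcript table allowed their proportions to be compared. A second transcript held at least 5% of the counts in 13 genes, with 30 transcripts to test. None passed an exact permutation test after adjustment (smallest adjusted p = 0.5), and in 6 transcripts of 4 genes the groups did not overlap, each at p = 0.1 by exact permutation, the smallest possible. Of the 6, 3 were higher and 3 lower in KO. By the same rule, 12% of the 17821 transcripts of all genes did not overlap, 6.22% higher and 5.82% lower. The shares of 1 gene's transcripts depend on each other, so the 6 are not independent, and the values that follow are a description. Rps24 is known for alternative splicing at its 3′ end that changes the last residues of the protein. Where the listed Rps24 transcripts differ from each other was not examined here. The share of its transcript XM_006518735.1 was 3.98%, 4.86% and 4.55% in the WT libraries and 7.13%, 6.71% and 6.79% in the KO libraries, so the KO libraries lay close together above the WT libraries. For Rpl35a, the transcript NM_001130484.1 held 13.8%, 12.5% and 15.6% in the WT libraries and 10.95%, 11.5% and 11.9% in the KO libraries, lower in every KO library. In Rpl10a, XM_006523922.1 held 8.53%, 8.50% and 8.15% in the WT libraries and 9.93%, 9.29% and 10.4% in the KO libraries, with the main transcript as its complement. Rps28 also had 2 complementary transcripts, of which NM_016844.2 held 29.1%, 28.5% and 29.1% in the WT libraries and 29.6%, 29.2% and 33.0% in the KO libraries, with KO replicate 3 highest and the other two KO values just above the WT values.

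Ribosomal proteins that the symbol rule leaves out gave values of the same size. Rps3a1 had an estimate of 0.054 (SE 0.12, adjusted p = 0.855). Fau, made as a fusion of a ubiquitin-like protein with Rps30, had 0.10 (SE 0.12, adjusted p = 0.718). Rack1, a scaffold on the small subunit, had 1082, 1209 and 1074 CPM in the WT libraries and 1409, 1318 and 1106 CPM in the KO libraries. KO replicates 1 and 2 were above the WT libraries and KO replicate 3 among them, for an estimate of 0.19 (SE 0.12, adjusted p = 0.467) and of 0.29 (adjusted p = 0.0208) without KO replicate 3.

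Other mRNAs with a TOP tract, a list that also holds Fau, Rack1 and Npm1, were likewise highest in KO replicate 1. None of the 21 tested was called (0 at an unadjusted p under 0.05, 0 by DESeq2 and 0 by limma-voom), with a median log2 fold change of 0.097, and their summed level was 21246, 24040.0 and 21127 in the WT libraries and 26347, 25190.0 and 21965 in the KO libraries (CPM). Eef2, the factor that moves the ribosome along the mRNA, had 3285, 3727 and 3249 CPM in the WT libraries and 4512, 4524 and 3387 CPM in the KO libraries. KO replicates 1 and 2 were above every WT library, with an estimate of 0.28 (SE 0.16, adjusted p = 0.406). Eef1a1, which brings tRNAs to the ribosome, had 8786, 10054 and 8696 CPM in the WT libraries and 10594, 10188 and 8841 CPM in the KO libraries and an estimate of 0.11 (SE 0.16, adjusted p = 0.772). Without KO replicate 3, 6 of the 21 genes were called higher and none lower, where 12.5% of all genes were called higher and 16.1% lower.

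Genes that build ribosomes were highest in another library than the ribosomal protein genes. Factors of small subunit assembly summed to 1162, 1224 and 1175 in the WT libraries and 1247, 1217 and 1594 in the KO libraries, and those of large subunit assembly to 1249, 1352 and 1251 in the WT libraries and 1328, 1278 and 1638 in the KO libraries (CPM). KO replicate 3 was the highest library for both lists, while it was among the lowest for the ribosomal protein genes. None of 33 and 29 genes was called by edgeR (6 and 1 at an unadjusted p under 0.05), with medians of 0.18 and 0.11. DESeq2 called none and 1, and limma-voom none of either. Fbl, the methyltransferase of box C/D particles, had 62.8, 69.3 and 66.4 CPM in the WT libraries and 80.7, 71.0 and 96.9 CPM in the KO libraries and an estimate of 0.32 (SE 0.12, adjusted p = 0.229). Nop58, its partner in those particles, had 62.6, 69.1 and 62.6 CPM in the WT libraries and 71.7, 63.8 and 81.8 CPM in the KO libraries and an estimate of 0.16 (SE 0.11, adjusted p = 0.472).

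**Figure D5:**
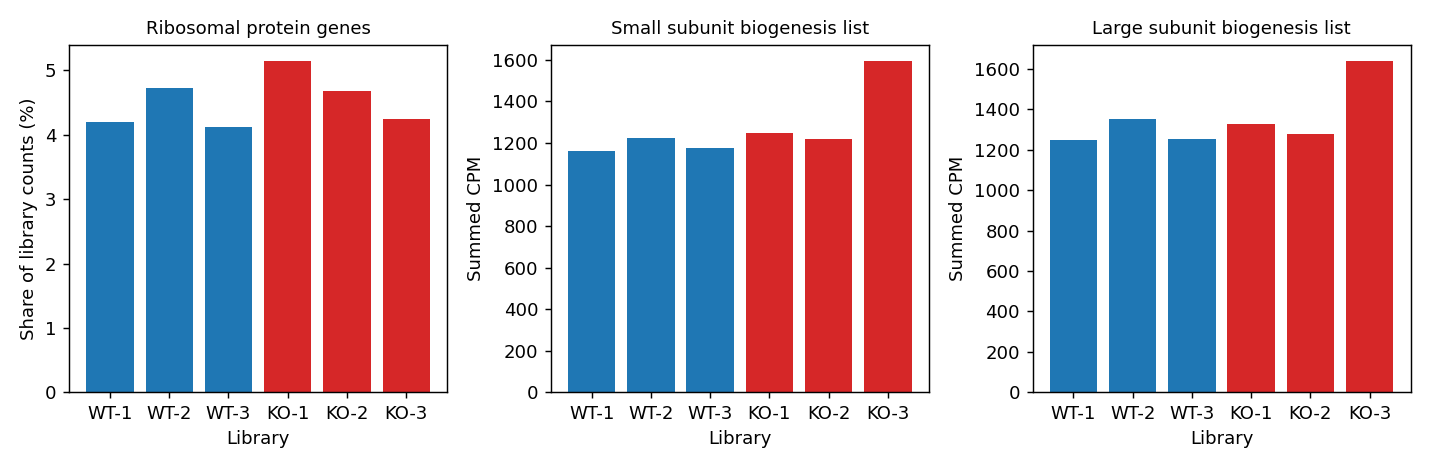
Share of library counts held by the ribosomal protein genes (left, in percent, Rps6 left out) and summed CPM of the small and large subunit biogenesis lists (middle and right), 1 bar per library with WT in blue and KO in red. The ribosomal protein share is highest in KO replicate 1 (5.14%), and both biogenesis lists are highest in KO replicate 3 (1594.0 and 1638 CPM).

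Of 21 genes of ribosomal RNA transcription and the nucleolus, none was called (4 at an unadjusted p under 0.05; DESeq2 called 2 higher, limma-voom none), with a median of 0.16. Ncl, nucleolin, had 335, 364 and 328 CPM in the WT libraries and 381, 373 and 486 CPM in the KO libraries, with all KO libraries above the WT libraries and KO replicate 3 highest, and an estimate of 0.27 (SE 0.12, adjusted p = 0.298). Npm1, nucleophosmin, had an estimate of 0.17 (SE 0.092, adjusted p = 0.385). Regulators of TOP mRNAs and of S6 showed small estimates, with a median of 0.095 over 18 genes and none called (0 at an unadjusted p under 0.05, 0 by DESeq2 or limma-voom). Larp1, the protein that binds the TOP tract, had 226, 235 and 233 CPM in the WT libraries and 244, 253 and 265 CPM in the KO libraries. Its KO libraries were all above the WT libraries, by little, with an estimate of 0.13 (SE 0.066, adjusted p = 0.332). Eif4ebp1, a brake on cap-dependent translation that mTORC1 lifts, had an estimate of 0.15 (SE 0.11, adjusted p = 0.517).

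Importins and chaperones of ribosomal proteins had a median of 0.070 over 18 genes, with none called (4 at an unadjusted p under 0.05, 0 by DESeq2 or limma-voom). Hspa8, a general chaperone, and Kpnb1, an importin, had estimates of -0.056 (SE 0.11, adjusted p = 0.839) and -0.059 (SE 0.11, adjusted p = 0.822). Ribosome quality control and rescue factors had a median of 0.093 over 18 genes, with none called (4 at an unadjusted p under 0.05; DESeq2 called 2 higher, limma-voom none). Rnf10, a ubiquitin ligase of stalled small subunits, had an estimate of 0.064 (SE 0.072, adjusted p = 0.694), and Abce1, which splits ribosomes, one of 0.010 (SE 0.11, adjusted p = 0.979). The 6 genes related to ribosomal protein genes outside the rule had a median of 0.055 and none called (0 at an unadjusted p under 0.05, 0 by DESeq2 or limma-voom). Host genes of snoRNAs were not analysed here.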

How the data were processed

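RNA-seq of mouse chondrocytes was compared between 3 WT and 3 KO libraries, grouped by their titles. Per the labels' protocols, reads were aligned to mm10 with STAR and counted with featureCounts 2.0.0, and DESeq2 1.28.1 was run. The deposited tables differ from this: 12.9% of the values in the gene table are not whole (tolerance 0.001), so they are treated as estimated counts deposited by the authors, and the transcript table holds estimated counts for RefSeq transcripts. TPM values, scaled for length and depth, were also deposited by the authors. What program, annotation and strand setting made them is not given in the sources used here. Another 24 deposited columns (FPKM and averages) were not used.

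Estimated counts were rounded, filtered with filterByExpr (at least 10 counts, total at least 15), TMM-scaled and fitted by edgeR 4.0.16 (quasi-likelihood, two-sided, no covariates) in R 4.3.3, with Benjamini-Hochberg adjustment over 13692 genes. A gene called, or said to have risen or fallen, had an adjusted p under 0.05, and a negative log2 fold change is lower in KO. Alternatives used limma 3.58.1 and DESeq2 1.42.0, other scalings and filters, a replicate block and each library left out, and, added after seeing the data, a fit without both WT replicate 2 and KO replicate 3. Paralogue and transcript shares were compared by exact two-sided permutation of the 6 libraries, with 0.1 as the smallest p. Positions and start windows come from RefSeq for GRCm38.p6, the build of mm10, in which all 81 genes were found. Pseudogene copies were sought with BLAST 2.17.0 in GENCODE vM21. Scripts were tested on simulated data.

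The genes and companion lists were chosen with earlier results of these data known. Named were the 8 highest and 8 lowest fold changes, the 6 highest and 3 lowest TPM levels, genes in a list of structural or disease roles, paralogue pairs, and from each companion list its called or else its 2 most abundant genes. Genes called without KO replicate 3, and those with pseudogene copies or apart transcript shares, were named after their values were seen. A few genes that these rules name are not reported here, though counts and medians over a list include them.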

Additional observations from a re-analysis of the deposited data

How the results depend on the processing

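Apart from Rps6, no ribosomal protein gene was called by the Wald test of DESeq2 or by limma-voom, with DESeq2 size factors or none, with either other filter (1 count in total, or 1 CPM in all libraries), with the ribosomal protein genes left out of scaling, or with the replicate number as a block. With 1 library left out, or both WT replicate 2 and KO replicate 3, 0 to 71 were called higher and 0 to 2 lower. The 71 belong to the double leave-out, chosen after seeing the data. The median log2 fold change ran from 0.0061 without KO replicate 1 to 0.24. In the companion lists, 172 genes in all, the DESeq2 Wald test called 5 higher and 1 lower. Over all 13692 genes it called 497 higher and 674 lower. Leaving out libraries gave 0 to 33 higher and 0 to 14 lower in these lists. Over all genes it gave 0 to 2416 higher and 0 to 3000 lower. The difference in library share, 0.345 percentage points, was 1.23 with TPM. Differences in paralogue share ran from -4.00 to -0.329 points (Rpl36al), -1.80 to -0.437 (Rpl39l), -4.55 to -1.47 (Rps27l), -1.58 to -0.261 (Rpl7l1) and -2.64 to -1.59 (Rpl22l1), all negative. The cause of these changes was not tested.

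Estimates near 0 changed sign. With library size only, Rpl24 became 0.0196, Rpl27a 0.0175, Rpl35 0.0175, Rpl29 0.0088, Rpl11 0.0053 and Rps29 0.0042. Rpl24 was 0.0021 and Rpl27a 0.0025 with DESeq2 size factors, 0.0021 and 0.0024 with the Wald test, 0.0011 and 0.0019 without the filter, and 0.0018 and 0.0024 with the ribosomal protein genes left out of scaling. With at least 1 CPM in all libraries, Rpl38 became -0.0131 and Abce1 -0.0044; Abce1 was -0.0011 with limma-voom and -0.00016 with the replicate block. Leaving out libraries also changed signs: Abce1 -0.11 to 0.085, Cdkn1a -0.64 to 0.14, Col1a2 -0.35 to 0.32, Egfl7 -0.17 to 0.090, Kpnb1 -0.19 to 0.016, Nop56 -0.010 to 0.31, Rpl11 -0.092 to 0.16, Rpl17 -0.053 to 0.29, Rpl22l1 -0.22 to 0.12, Rpl23a -0.053 to 0.22, Rpl24 -0.10 to 0.18, Rpl27a -0.11 to 0.19, Rpl29 -0.067 to 0.11, Rpl31 -0.047 to 0.20, Rpl35 -0.050 to 0.095, Rpl35a -0.042 to 0.23, Rpl36a -0.043 to 0.22, Rpl38 -0.079 to 0.18, Rpl39 -0.20 to 0.20, Rpl41 -0.19 to 0.083, Rpl5 -0.0043 to 0.23, Rps15 -0.035 to 0.28, Rps2 -0.0011 to 0.089, Rps26 -0.031 to 0.17 and Rps29 -0.071 to 0.17.

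Replicate numbers were not used to pair the libraries. Deviations from group means correlated at -0.14, 0.21 and 0.24 between WT and KO libraries of the same number. Between libraries of different numbers they correlated at -0.26 to 0.26. With 3 libraries a group, these values cannot settle whether the numbers pair the libraries. With the replicate block, 1 gene was called higher and 4 lower over the whole table, none of the 78 was called (median 0.081), and Rps6 kept its call at an adjusted p = 0.0494. No transcript share could pass under any alternative, since the exact permutation test of these libraries cannot give a p below 0.1. Rpl39l rests on few counts, and 3 libraries a group limit all precision here.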
